A study of Homo sapiens with 72 samples.

Results

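SERTAD1, SERTAD3, IER5, IER5L and VASN are 5 protein-coding genes that were taken from the deposited table by their symbols and followed through all 24 groups of cell line, time and treatment. They are 5 of the 19324 genes in that table, and all 5 passed the filter on low counts that left 15470 genes for testing. The set was proposed as compact genes raised early after ultraviolet (UV) irradiation, and the members were chosen by their measured changes against untreated cells; those changes are described here without a test. The name fitted 4 of them. SERTAD3 went against it: its level 3 h after irradiation lay below that of untreated cells in each of the 4 lines, and it was above untreated cells in all 4 lines only at 20 h in DMSO. The differences between inhibitor and solvent and between knockout and unedited cells at the same time were not themselves used in the choice, and these were tested. The groups at 0 h, at 3 h and in DMSO entered both, so tests that hold them are not independent of the choice.

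UV light leaves bulky lesions in DNA that stop RNA polymerase II, and a short gene offers less template in which a lesion can lie. The 5 proteins act in different places. SERTAD1 binds the cyclin-dependent kinase CDK4 and serves as a co-activator of E2F transcription factors, which turn on genes of DNA replication. SERTAD3, a relative of SERTAD1, is a transcriptional co-activator first found as a partner of the replication protein RPA2. IER5 is an immediate early gene whose product joins the phosphatase PP2A to the heat shock factor HSF1 and so activates HSF1; IER5L encodes a related protein about which less is known. VASN encodes vasorin, a membrane protein that binds transforming growth factor beta (TGF-beta) and dampens its signal.

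The cells were HEK293 Flp-In T-REx, a human embryonic kidney line that carries adenovirus E1 genes, whose products inhibit p53 and RB, and a site for targeted insertion of transgenes. The lines were a knockout of CSB (CSB_KO), a pair of knockouts of STK19 (STK19_KO1 and STK19_KO2) and unedited cells (WT), each with 6 conditions and 3 libraries per condition, 72 libraries in all. The conditions were untreated cells (0 h), cells left for 3 h after UV with no drug, and cells at 4 h and at 20 h in VE-821 at 3 µM, an inhibitor of the checkpoint kinase ATR (ATRi), or in the solvent DMSO. CSB, encoded by ERCC6, starts transcription-coupled repair at stalled RNA polymerase II, and STK19 has been placed in the same pathway. ATR is the kinase that responds to single-stranded DNA at stalled replication forks and holds back the cell cycle. No UV dose is in the labels, and they leave unsettled if the later times start at the UV pulse or at the drug. The groups at 4 h and 20 h are taken here as irradiated too. The labels name no unirradiated group at 3 h, 4 h or 20 h and no ATRi group without UV. In changes against 0 h, UV therefore cannot be told apart from time in culture or handling, and ATRi effects cannot be tied to UV. CSB_KO is a single line in the labels, so traits of that clone and loss of CSB cannot be told apart, and traits of the only unedited line enter every comparison with WT.

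The genes are short. On GRCh38, with coordinates from the deposited table, SERTAD1 (ENSG00000197019) lies on the minus strand at chr19:40421589-40425992, spans 4.40 kb and has 2 exons, and SERTAD3 (ENSG00000167565) lies on the same strand at chr19:40440844-40444335, spans 3.49 kb and has 2 exons. The 2 are direct neighbours with a gap of 14.9 kb. IER5 (ENSG00000162783) is a gene of 1 exon on the plus strand at chr1:181088700-181092900, 4.20 kb long. IER5L (ENSG00000188483), also of 1 exon, is on the minus strand at chr9:129175552-129178261 and spans 2.71 kb. VASN (ENSG00000168140) is on the plus strand at chr16:4371848-4383538, spans 11.7 kb and has 2 exons. Of all genes in the table, 10.8% had a shorter span than SERTAD1, 8.16% than SERTAD3, 10.2% than IER5, 6.04% than IER5L and 27.3% than VASN. VASN lies on the opposite strand inside CORO7, and IER5L overlaps a gene without a symbol on the opposite strand that had at most 16 counts in any library. The sources used here do not say if counting used strand, so reads of VASN and CORO7 may not be fully separated. CORO7 did not follow VASN: its level at 3 h and at 0 h was 51.2 ± 4.54 and 48.6 ± 1.12 CPM in CSB_KO, and 34.6 ± 11.2 and 40.4 ± 6.74 CPM in WT (SD, n = 3 each).

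The promoters of the 5 genes are shown because 4 of the genes moved together, and IER5 and IER5L share a stretch of letters. All 5 matched by symbol to RefSeq promoters of GRCh38.p14, each running from 250 bases before the annotated start to 50 bases into the gene, on the strand of the gene. The regions are chr19:40425943-40426242 for SERTAD1, chr19:40444286-40444585 for SERTAD3, chr1:181088450-181088749 for IER5, chr9:129178212-129178511 for IER5L and chr16:4371598-4371897 for VASN. Capitals mark CCAAT, the box bound by the factor NF-Y, read on either strand and so also printed as ATTGG, and GAANNTTC, the core of the heat shock element bound by HSF1.
SERTAD1: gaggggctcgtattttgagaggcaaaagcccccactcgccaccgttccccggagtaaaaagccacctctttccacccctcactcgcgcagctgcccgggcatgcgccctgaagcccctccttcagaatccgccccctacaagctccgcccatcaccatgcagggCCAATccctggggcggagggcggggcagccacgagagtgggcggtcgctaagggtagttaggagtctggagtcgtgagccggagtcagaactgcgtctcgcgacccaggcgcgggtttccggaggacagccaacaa
SERTAD3: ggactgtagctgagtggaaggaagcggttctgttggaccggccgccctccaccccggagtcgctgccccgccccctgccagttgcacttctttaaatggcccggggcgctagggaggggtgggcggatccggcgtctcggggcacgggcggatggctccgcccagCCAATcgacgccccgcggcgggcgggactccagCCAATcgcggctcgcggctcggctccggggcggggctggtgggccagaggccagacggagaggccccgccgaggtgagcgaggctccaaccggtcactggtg
IER5: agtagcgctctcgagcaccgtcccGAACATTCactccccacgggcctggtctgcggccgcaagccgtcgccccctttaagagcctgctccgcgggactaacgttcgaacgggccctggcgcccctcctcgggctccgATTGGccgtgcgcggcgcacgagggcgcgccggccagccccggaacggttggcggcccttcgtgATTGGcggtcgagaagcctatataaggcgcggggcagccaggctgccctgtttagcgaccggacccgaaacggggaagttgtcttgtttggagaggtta
IER5L: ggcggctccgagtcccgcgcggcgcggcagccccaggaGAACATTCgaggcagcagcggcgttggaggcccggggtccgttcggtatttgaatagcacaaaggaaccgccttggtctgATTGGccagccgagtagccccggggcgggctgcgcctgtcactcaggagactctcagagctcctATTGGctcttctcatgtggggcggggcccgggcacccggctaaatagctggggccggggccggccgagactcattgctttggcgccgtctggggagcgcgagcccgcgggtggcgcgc
VASN: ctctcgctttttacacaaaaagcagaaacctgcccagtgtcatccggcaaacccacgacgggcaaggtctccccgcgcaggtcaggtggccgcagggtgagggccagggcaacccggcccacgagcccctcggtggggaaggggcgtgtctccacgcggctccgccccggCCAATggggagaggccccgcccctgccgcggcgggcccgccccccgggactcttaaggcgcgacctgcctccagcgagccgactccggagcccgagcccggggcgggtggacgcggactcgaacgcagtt
CCAAT was found in 5 of 5 promoters and in 34.6% of the 35116 promoters of the table. GAANNTTC was found in IER5, starting 226 bases before the start, and in IER5L, starting 212 bases before it, and in 6.77% of all promoters. In both genes the matching letters were GAACATTC, and both also held a pair of CCAAT boxes on the opposite strand, 113 and 49 bases before the start in IER5 and 132 and 68 bases before it in IER5L. The GC box GGGCGG, read on both strands, was in 4 of 5 promoters, not in that of IER5, and in 44.95% of all. The AP-1 letters TGANTCA, the cAMP response element TGACGTCA and the TATA box letters TATAAA were in 0 of 5 windows, against 7.71%, 1.85% and 11.5% of all promoters. Only exact letters were counted, and the IER5 promoter holds the near stretch TATATAA, so absence of a TATA box does not follow. These motifs were picked after the promoters had been read, no motif overlapped another in the capitals, and a match is a description of letters.

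Library totals ran from 36.5 to 212.9 M counts with a median of 56.3 M, and each member had at least 125 counts in every library, SERTAD1 between 445 and 54948. Values are CPM, the count of a gene relative to the TMM-scaled library size, so each is a share of the measured messenger RNA, and total RNA per cell was not measured; fewer cells and less RNA per cell cannot be told apart. Of the HEK293-like neural and fetal markers, 5 of 6 were over 1 CPM, with summed levels between 192 and 467 CPM, while 0 of 5 blood, 0 of 2 squamous and 0 of 3 kidney tubule markers and 1 of 4 fibroblast markers passed that line. In untreated cells ERCC6 had 6.97 ± 0.611 CPM in CSB_KO and 23.5 ± 0.473 CPM in WT (SD, n = 3 each), and STK19 had 17.5 ± 0.587 CPM in STK19_KO1, 17.1 ± 0.862 CPM in STK19_KO2 and 19.0 ± 1.07 CPM in WT, so the gene's summed counts do not check those labels. In 5 of the 72 libraries the counts differed from both other libraries of the group by more than 20 chi-square units per gene: for WT this was replicate 1 in untreated cells, at 3 h and with DMSO at 4 h, and for STK19_KO1 replicate 3 at 3 h and replicate 1 with ATRi at 4 h. Where leaving these 5 libraries out ended or made a call, or moved a called value that is printed here by over 1.5 times, the value without them is given, beside the result or in the closing section.

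SERTAD1, the E2F co-activator, went up steeply in every line and then differed between lines at 20 h. In CSB_KO its level was 12.8 CPM at 0 h, 106 CPM at 3 h, 109 CPM at 4 h in DMSO and 258 CPM at 20 h in DMSO. The 3 libraries of CSB_KO at 20 h had 266, 252 and 256 CPM, and those at 0 h had 13.1, 13.3 and 12.1 CPM. In WT the level was 10.9 ± 1.56 CPM at 0 h, 100.2 ± 10.6 CPM at 3 h, 107 ± 10.4 CPM at 4 h in DMSO and 36.7 ± 2.02 CPM at 20 h in DMSO (SD, n = 3 each). Without inhibitor, CSB_KO thus stood highest at 20 h, and WT had come most of the way down. The STK19 knockouts lay between them, with 151, 157 and 159 CPM in STK19_KO1 and 179, 174 and 187 CPM in STK19_KO2 at 20 h in DMSO. Against its own 0 h, SERTAD1 at 3 h was 8.21-fold in CSB_KO, 8.54-fold in STK19_KO1, 9.35-fold in STK19_KO2 and 9.20-fold in WT.

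**Figure D1:**
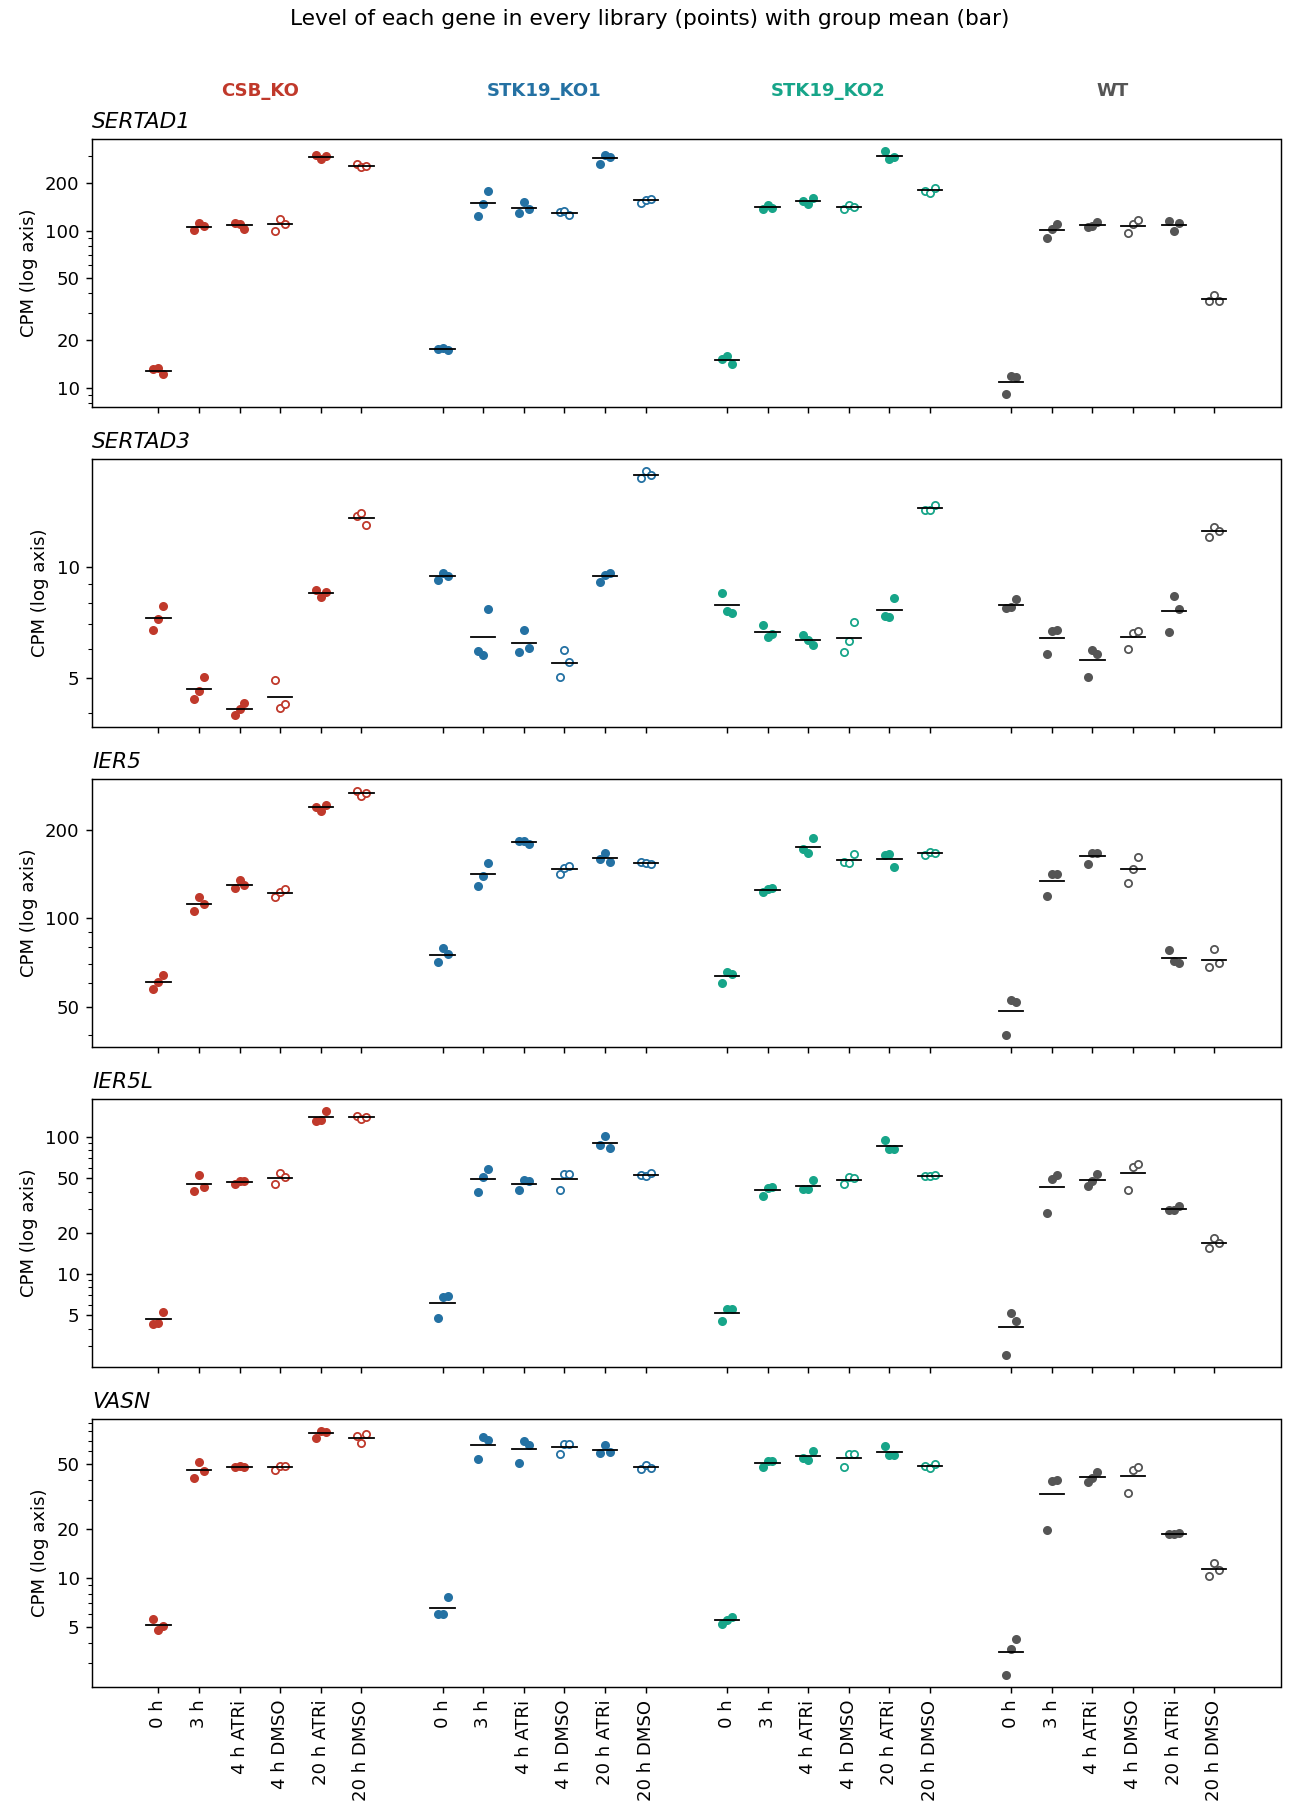
Level of each of the 5 genes in every library, in CPM on a log axis, with the 6 conditions of each line side by side; points are libraries, open for DMSO, and bars are means of 3. SERTAD1, IER5L and VASN are lowest at 0 h in each line, whereas SERTAD3 is highest at 20 h in DMSO.

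IER5, the activator of HSF1, changed by fewer log2 units than SERTAD1. At 3 h it had 106, 118 and 112 CPM in CSB_KO, against 57.6, 60.5 and 63.9 CPM at 0 h, a log2 difference of 0.89 ± 0.07 (SE). In WT it had 119, 141 and 142 CPM at 3 h, against 40.1, 52.7 and 51.8 CPM at 0 h, a log2 difference of 1.47 ± 0.07. In both lines the 3 libraries at 3 h lay above the 3 at 0 h, as for 35.8% of all genes in CSB_KO and 26.5% in WT. By 20 h in DMSO, IER5 had 267 ± 5.71 CPM in CSB_KO, 155 ± 0.94 in STK19_KO1, 167 ± 1.68 in STK19_KO2 and 72.4 ± 5.34 in WT (SD, n = 3 each). Only in WT, of the 4 lines, did the mean at 20 h in DMSO lie below that at 3 h.

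IER5L, the relative of IER5, had the widest range of the 5, 33.9-fold between its highest and lowest group means, against 5.54-fold for IER5. Its 3 libraries of CSB_KO had 4.34, 4.39 and 5.30 CPM at 0 h, 40.3, 52.7 and 43.2 CPM at 3 h, 45.2, 54.7 and 51.3 CPM at 4 h in DMSO and 142, 136 and 141 CPM at 20 h in DMSO. Those of WT had 2.58, 5.24 and 4.58 CPM at 0 h, 28.0, 49.2 and 52.7 CPM at 3 h, 40.9, 60.8 and 63.5 CPM at 4 h in DMSO and 15.5, 18.4 and 17.02 CPM at 20 h in DMSO. In WT the low value at 0 h, 3 h and 4 h is replicate 1 each time, which is 1 of the libraries that stood apart; without them the log2 difference of 3 h over 0 h in WT was 3.37, and with them 3.38 ± 0.18 (SE). At 20 h in DMSO the STK19 knockouts were at 53.2 ± 1.51 CPM in STK19_KO1 and 52.5 ± 0.519 CPM in STK19_KO2 (SD, n = 3 each), near their own levels at 3 h of 49.8 and 41.0 CPM.

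VASN, the TGF-beta binding protein, followed a course like that of IER5L in CSB_KO and WT. It had 41.4, 51.4 and 45.3 CPM at 3 h in CSB_KO, against 5.60, 4.76 and 5.05 CPM at 0 h. In WT it had 19.8, 39.3 and 39.8 CPM at 3 h, against 2.54, 3.67 and 4.25 CPM at 0 h, again with replicate 1 the lowest at both times. Without the libraries that stood apart, the log2 difference of 3 h over 0 h in WT was 3.28, and with them 3.21 ± 0.16 (SE). At 20 h in DMSO VASN had 72.9 ± 4.64 CPM in CSB_KO, 47.9 ± 1.304 CPM in STK19_KO1, 48.9 ± 1.403 CPM in STK19_KO2 and 11.3 ± 0.988 CPM in WT (SD, n = 3 each). In the STK19 knockouts its means at 3 h were higher than these, at 65.9 ± 10.7 CPM in STK19_KO1 and 51.0 ± 2.17 CPM in STK19_KO2. The means of IER5L there were lower at 3 h than at 20 h in DMSO. The 3 WT libraries at 20 h in DMSO were all below the lowest WT library at 4 h in DMSO, at 33.5 CPM. Among all tested genes 35.8% were separated downward in this way.

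SERTAD3 ran the other way early on. In CSB_KO it had 4.37, 4.62 and 5.01 CPM at 3 h, against 6.72, 7.24 and 7.82 CPM at 0 h, and in WT it had 5.79, 6.71 and 6.75 CPM at 3 h, against 7.71, 7.79 and 8.18 CPM at 0 h. All 3 libraries at 3 h were below all 3 at 0 h in both lines; among all tested genes 32.1% in CSB_KO and 25.6% in WT were separated downward in this way. The log2 differences were -0.63 in CSB_KO, -0.55 in STK19_KO1, -0.24 in STK19_KO2 and -0.30 in WT. At 20 h in DMSO it was above 0 h in every line, by 0.91, 0.91, 0.88 and 0.66 on the log2 scale in CSB_KO, STK19_KO1, STK19_KO2 and WT. At 20 h in DMSO its libraries had 13.7, 13.97 and 13.0 CPM in CSB_KO and 12.1, 12.8 and 12.5 CPM in WT, a far smaller gap than that of its neighbour SERTAD1.

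**Figure D2:**
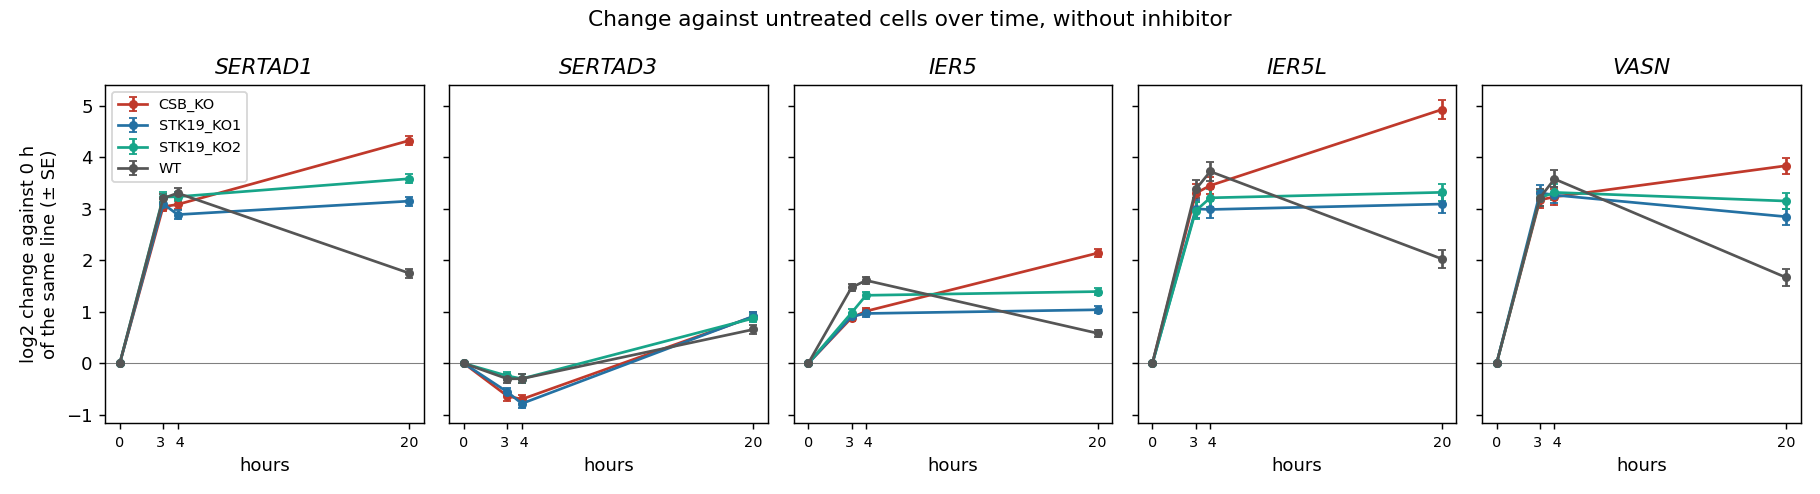
Fitted log2 change of each gene against 0 h of the same line, without inhibitor (points with SE, n = 3 per group), against hours on a linear axis. SERTAD1, IER5L and VASN are near 3 at 3 h in every line, and at 20 h CSB_KO is highest and WT lowest, whereas SERTAD3 is below 0 at 3 h and 4 h.

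Across the 24 group means of log2 CPM, SERTAD1 correlated with IER5L at a Pearson r of 0.98, with VASN at 0.96 and with IER5 at 0.90, while SERTAD3 correlated with the other members between -0.13 and 0.05. These groups share lines, times and library scaling, so the values describe likeness of course and carry no test. Among the other genes most like SERTAD1 over the 24 groups were IRF1 (0.977), RGS2 (0.976) and ZNF416 (0.976). For IER5 they were RSRP1 (0.975), GATC (0.960) and TBX3 (0.959), for IER5L SNAI1 (0.989) and DYNLL2 (0.977), and for VASN FOSB (0.976), HELZ2 (0.971) and DYNLL2 again (0.970). For SERTAD3 they were KIF3C (0.926), IST1 (0.924) and ZDHHC5 (0.918). In the order of the 24 group means, the libraries of neighbouring groups overlapped in 14 of 23 steps for SERTAD1, 16 for SERTAD3, 17 for IER5 and 18 each for IER5L and VASN. For SERTAD1 the 3 knockout groups in ATRi at 20 h formed the top, with overlapping libraries, and the 4 groups at 0 h formed the bottom. For IER5L the top was CSB_KO at 20 h, at 140.0 ± 12.9 CPM in ATRi and 139.8 ± 3.26 CPM in DMSO, and the next pair, the STK19 knockouts in ATRi at 20 h, did not overlap with it. For VASN the upper 18 groups formed 1 chain of overlapping neighbours. For SERTAD3 the 4 groups at 20 h in DMSO were the highest, each separate from the next.

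With ATRi at 4 h, 1 of 20 tests of a member in a line passed. IER5 was higher in STK19_KO1, with 183, 184 and 179 CPM in ATRi and 142, 149 and 151 CPM in DMSO, a log2 difference of 0.31 ± 0.07 (SE; edgeR quasi-likelihood test, Benjamini-Hochberg adjusted p = 0.00824). Of all genes, 2.7% were called higher at 4 h in CSB_KO, 0.776% in STK19_KO1, 0.194% in STK19_KO2 and 2.03% in WT. The IER5 differences in the other lines were 0.09 in CSB_KO, 0.15 in STK19_KO2 and 0.14 in WT, and the difference between STK19_KO1 and WT did not pass (0.16, edgeR adjusted p = 0.963). The difference was between 0.27 and 0.34 over all alternatives. It lost the call when only the groups compared entered the fit (0.30, edgeR adjusted p = 0.0536) and without replicate 2 (0.31, edgeR adjusted p = 0.403) or 3 (0.34, edgeR adjusted p = 0.125). It kept the call without the libraries that stood apart (0.30, edgeR adjusted p = 0.000212), with DESeq2 (adjusted p = 0.000979) and in the other fits. Without the libraries that stood apart, IER5L and SERTAD3 in WT were called lower, at -0.35 (edgeR adjusted p = 0.0166) and -0.24 (edgeR adjusted p = 0.0445), against -0.18 and -0.19 with them.

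At 20 h the members moved in different directions in ATRi: 8 of 20 tests were called higher, 4 lower and 8 neither. The share of all genes called in either direction was 31.5% in CSB_KO, 61.5% in STK19_KO1, 58.2% in STK19_KO2 and 63.9% in WT, so a call is common there. SERTAD1 rose most. It had 114, 99.98 and 112 CPM in ATRi and 35.6, 39.0 and 35.5 CPM in DMSO in WT, a log2 difference of 1.57 ± 0.08 (SE; edgeR adjusted p = 4.42e-24). In STK19_KO1 it had 266, 303 and 294 CPM in ATRi and 151, 157 and 159 CPM in DMSO, a difference of 0.89 ± 0.08, and in STK19_KO2 321, 285 and 293 CPM and 179, 174 and 187 CPM, a difference of 0.74 ± 0.08. The ATRi libraries lay above the DMSO libraries in each of these lines, as did 35.9%, 36.2% and 33% of all genes in STK19_KO1, STK19_KO2 and WT. In CSB_KO SERTAD1 had 304, 284 and 299.7 CPM in ATRi and 266, 252 and 256 CPM in DMSO, a difference of 0.20 ± 0.08 that just missed the threshold (edgeR adjusted p = 0.0509) and passed it without the libraries that stood apart (edgeR adjusted p = 0.00225).

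SERTAD3 fell in all 4 lines at 20 h in ATRi. It had 8.63, 8.26 and 8.57 CPM in ATRi and 13.7, 13.97 and 13.0 CPM in DMSO in CSB_KO, and 6.65, 8.35 and 7.71 CPM in ATRi and 12.1, 12.8 and 12.5 CPM in DMSO in WT. The log2 differences were -0.68 ± 0.08 in CSB_KO, -0.92 ± 0.08 in STK19_KO1, -0.92 ± 0.08 in STK19_KO2 and -0.72 ± 0.08 in WT (SE; edgeR adjusted p at most 1.68e-09). The ATRi libraries lay below the DMSO libraries in each line, as for 23.2% of all genes in CSB_KO, 33.3% in STK19_KO1, 33.2% in STK19_KO2 and 36.8% in WT. Mean levels of SERTAD3 in ATRi at 20 h and at 0 h were 7.57 and 7.89 CPM in WT and 8.49 and 7.26 CPM in CSB_KO. They were 9.43 and 9.42 CPM in STK19_KO1 and 7.63 and 7.86 CPM in STK19_KO2. These 2 conditions were not tested against each other. The neighbours SERTAD1 and SERTAD3 therefore changed in opposite directions in STK19_KO1, STK19_KO2 and WT.

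IER5L rose at 20 h in 3 of 4 lines. It had 87.3, 103 and 83.9 CPM in ATRi and 52.6, 52.0 and 54.9 CPM in DMSO in STK19_KO1, a log2 difference of 0.78 ± 0.15 (SE; edgeR adjusted p = 6.05e-06). In STK19_KO2 the difference was 0.72 ± 0.15 and in WT 0.82 ± 0.16, where the libraries had 29.3, 29.2 and 31.7 CPM in ATRi and 15.5, 18.4 and 17.02 CPM in DMSO. In CSB_KO it had 131, 134 and 155 CPM in ATRi and 142, 136 and 141 CPM in DMSO, overlapping groups with a difference of 0.00 ± 0.14. IER5, by contrast, was called in 0 of 4 lines by edgeR, with differences between -0.16 in CSB_KO and 0.06 in STK19_KO1, and 1 of 4 with an unadjusted p under 0.05. Its WT libraries had 78.1, 71.5 and 70.3 CPM in ATRi and 68.2, 78.4 and 70.7 CPM in DMSO. DESeq2 called 0 of these 4 tests of IER5, and edgeR without the libraries that stood apart called IER5 lower in CSB_KO (-0.16, adjusted p = 0.00578).

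VASN rose at 20 h in WT and STK19_KO1. The WT libraries had 18.7, 18.5 and 19.0 CPM in ATRi and 10.3, 12.3 and 11.2 CPM in DMSO, a log2 difference of 0.73 ± 0.15 (SE; edgeR adjusted p = 1.83e-05). In STK19_KO1 the difference was 0.35 ± 0.13 (edgeR adjusted p = 0.0187), a call that was lost when replicate 2 or 3 was left out. In STK19_KO2 it was 0.29 ± 0.13 (edgeR adjusted p = 0.0617; 0.00109 without the libraries that stood apart), and in CSB_KO 0.09 ± 0.13.

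**Figure D3:**
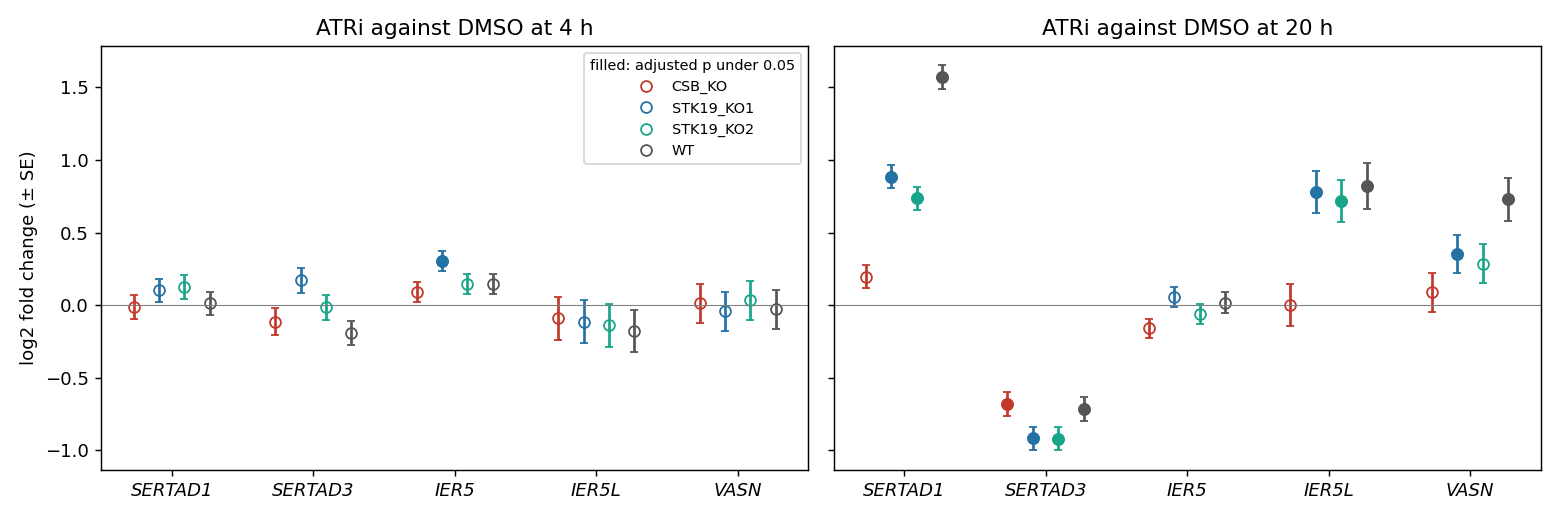
Fitted log2 fold change of ATRi over DMSO for each gene and line at 4 h and at 20 h (points with SE, n = 3 per group); filled points passed an adjusted p of 0.05. At 20 h SERTAD1 is highest in WT, at 1.57, SERTAD3 is below 0 in each line, and IER5 stays near 0.

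The ATRi effect at 20 h differed between knockouts and WT in 5 of 15 tests of the difference itself, all 5 lower in the knockout, where 26.9% of all genes were called lower for CSB_KO, 17.8% for STK19_KO1 and 17.4% for STK19_KO2. SERTAD1 accounted for 3, at -1.37 ± 0.11 in CSB_KO (SE; edgeR adjusted p = 2.66e-15), -0.68 ± 0.11 in STK19_KO1 and -0.83 ± 0.11 in STK19_KO2. The others were IER5L in CSB_KO, at -0.82 ± 0.21 (edgeR adjusted p = 0.000934), and VASN in CSB_KO, at -0.64 ± 0.20 (edgeR adjusted p = 0.0053). The 3 comparisons share the WT libraries. Without the libraries that stood apart the count was 8, with IER5 in CSB_KO (-0.18), VASN in STK19_KO1 (-0.38) and VASN in STK19_KO2 (-0.45) added. For SERTAD3 the difference from WT was 0.04 ± 0.12 in CSB_KO, -0.20 ± 0.11 in STK19_KO1 and -0.20 ± 0.12 in STK19_KO2, with no call. At 4 h 0 of 15 such tests passed in edgeR, with 1 at an unadjusted p under 0.05, where 3.2%, 0% and 0.00646% of all genes were called for CSB_KO, STK19_KO1 and STK19_KO2, and DESeq2 called 0 of the 15. The ATRi effect was larger at 20 h than at 4 h, upward for SERTAD1 and IER5L in both STK19 knockouts and WT. For SERTAD3 it was larger downward in all 4 lines. Of 20 tests of this difference 7 passed upward and 5 downward, where 15.7% of all genes were called in CSB_KO, 49.4% in STK19_KO1, 45.8% in STK19_KO2 and 55.5% in WT.

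The change between 4 h and 20 h in ATRi was tested within each line, and the lines were not tested against each other in this change. Of 20 tests 12 passed upward and 4 downward, where 72.5% of all genes were called in CSB_KO, 74.1% in STK19_KO1, 73.3% in STK19_KO2 and 72.8% in WT. In CSB_KO all 5 members rose, IER5L by 1.56 ± 0.15 (SE) and SERTAD1 by 1.45 ± 0.08 on the log2 scale. In WT IER5, IER5L and VASN fell, with log2 differences of -1.15 ± 0.07, -0.69 ± 0.15 and -1.15 ± 0.14, and SERTAD3 rose by 0.43 ± 0.09. SERTAD1 in WT had 114, 99.98 and 112 CPM at 20 h in ATRi and 105, 106 and 113 CPM at 4 h in ATRi, overlapping values with a log2 difference of 0.01 ± 0.08 (edgeR adjusted p = 0.945). In both STK19 knockouts SERTAD1 and IER5L rose, by 1.04 and 1.00 in STK19_KO1 and by 0.96 and 0.96 in STK19_KO2. VASN passed in neither of them, at -0.02 and 0.09. Without inhibitor, the described median log2 difference of 20 h over 4 h across the 5 members was 1.24 in CSB_KO and -1.55 in WT. In ATRi it was 1.03 and -0.69. The STK19 knockouts had 0.11 each in DMSO, and 0.61 (STK19_KO1) and 0.27 (STK19_KO2) in ATRi.

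Before irradiation the members tended to be higher in the knockouts: 11 of 15 tests against WT were called higher and 0 lower, where 19.1% of all genes were called higher in CSB_KO, 29.5% in STK19_KO1 and 26.6% in STK19_KO2. Levels at 0 h were used in choosing the genes, so these tests and their p-values are not independent of that choice. A low WT level at 0 h would enlarge both the WT rise used in the choice and the knockout difference. The count of calls therefore cannot tell a trait of the knockouts from an effect of the choice. SERTAD1, IER5 and VASN were called in all 3 knockouts. VASN in STK19_KO1 had 6.01, 6.04 and 7.69 CPM, against 2.54, 3.67 and 4.25 CPM in WT, a log2 difference of 0.90 ± 0.18 (SE; edgeR adjusted p = 2.58e-05). IER5 in STK19_KO1 had 70.8, 79.4 and 75.4 CPM, against 40.1, 52.7 and 51.8 CPM in WT, a difference of 0.64 ± 0.07. In WT at 0 h the lowest value of both genes is replicate 1, a library that stood apart. Without the 5 libraries that stood apart, SERTAD1 in CSB_KO (0.14, against 0.24 with them) and IER5L in STK19_KO1 (0.35, against 0.58 with them) were no longer called, and the other 9 calls were kept. In CSB_KO VASN was then 0.35, against 0.52 with them, and IER5 0.21, against 0.33. With replicate 1 left out of every group, SERTAD1 in CSB_KO was again not called, and IER5L in STK19_KO1 was (0.51).

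At 3 h 5 of 15 tests against WT were called higher and 2 lower, where 49.8%, 59.1% and 60.2% of all genes were called in CSB_KO, STK19_KO1 and STK19_KO2. VASN was called higher in each knockout, at 0.48 ± 0.14 in CSB_KO, 1.00 ± 0.14 in STK19_KO1 and 0.62 ± 0.13 in STK19_KO2 (SE). In WT the VASN libraries at 3 h include replicate 1, at 19.8 CPM; without the 5 libraries that stood apart the differences were smaller, at 0.23 in CSB_KO, 0.69 in STK19_KO1 and 0.36 in STK19_KO2 (edgeR adjusted p at most 0.0274). SERTAD1 was called higher in the STK19 knockouts, at 0.58 and 0.49 (0.36 and 0.41 without those libraries), and was 0.08 in CSB_KO with all libraries. SERTAD3 and IER5 were called lower in CSB_KO, at -0.46 ± 0.09 and -0.26 ± 0.07. Without the libraries that stood apart 5 tests were lower, with IER5L (-0.31) and IER5 (-0.18) in STK19_KO2 and SERTAD3 in STK19_KO1 (-0.21) added. At 4 h in ATRi 5 tests were higher and 2 lower, and at 4 h in DMSO 4 were higher and 3 lower, where 43.5%, 52.9% and 56.5% of all genes were called in ATRi and 48%, 56.1% and 59.4% in DMSO, in CSB_KO, STK19_KO1 and STK19_KO2. IER5L was called in none of the 9 tests at 3 h and 4 h with all libraries, but at 4 h in DMSO it was called lower in all 3 knockouts without the libraries that stood apart, at -0.30 in CSB_KO, -0.34 in STK19_KO1 and -0.36 in STK19_KO2.

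At 20 h in DMSO the lines were far apart: 14 of 15 tests against WT were called higher and 0 lower, where 38.4% of all genes were called higher in CSB_KO, 32.4% in STK19_KO1 and 31.8% in STK19_KO2. Of 3611 other genes with a span of up to 11.7 kb, 57.1%, 41.0% and 41.4% were called higher in the same lines. In CSB_KO IER5L showed the widest gap, with 142, 136 and 141 CPM in CSB_KO and 15.5, 18.4 and 17.02 CPM in WT, a log2 difference of 3.04 ± 0.16 (SE; edgeR adjusted p = 5.46e-25). In the STK19 knockouts its differences, 1.64 ± 0.15 in STK19_KO1 and 1.63 ± 0.15 in STK19_KO2, lay below those of SERTAD1 and VASN. SERTAD1 stood above WT by 2.81 ± 0.09 (CSB_KO), 2.08 ± 0.08 in STK19_KO1 and 2.29 ± 0.08 in STK19_KO2. VASN differed by 2.69 ± 0.15, 2.08 ± 0.14 and 2.11 ± 0.14, and IER5 by 1.88 ± 0.07, 1.10 ± 0.07 and 1.204 ± 0.07, in the same order of lines. SERTAD3 was the smallest, at 0.12 ± 0.08 in CSB_KO, which was not called (edgeR adjusted p = 0.164), 0.51 ± 0.08 in STK19_KO1 and 0.21 ± 0.08 in STK19_KO2; the call in STK19_KO2 was lost when replicate 2 or 3 was left out. Genes no longer than VASN were also shifted upward: among 3611 other genes with a span of up to 11.7 kb the median log2 difference was 0.55 in CSB_KO, 0.17 in STK19_KO1 and 0.16 in STK19_KO2, against 0.00, -0.03 and -0.05 over all tested genes and 2.69, 1.64 and 1.63 over the 5 members. The members were chosen by changes that include the groups at 20 h in DMSO, so their medians are not independent of the choice. With ATRi at 20 h 13 of 15 tests were called higher and 0 lower, where 40.3%, 33.1% and 32.2% of all genes were called higher in CSB_KO, STK19_KO1 and STK19_KO2. Of the 3611 short genes, 57.3%, 36.4% and 37.0% were called higher. SERTAD1 then differed from WT by 1.44 ± 0.08, 1.4003 ± 0.08 and 1.46 ± 0.08.

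**Figure D4:**
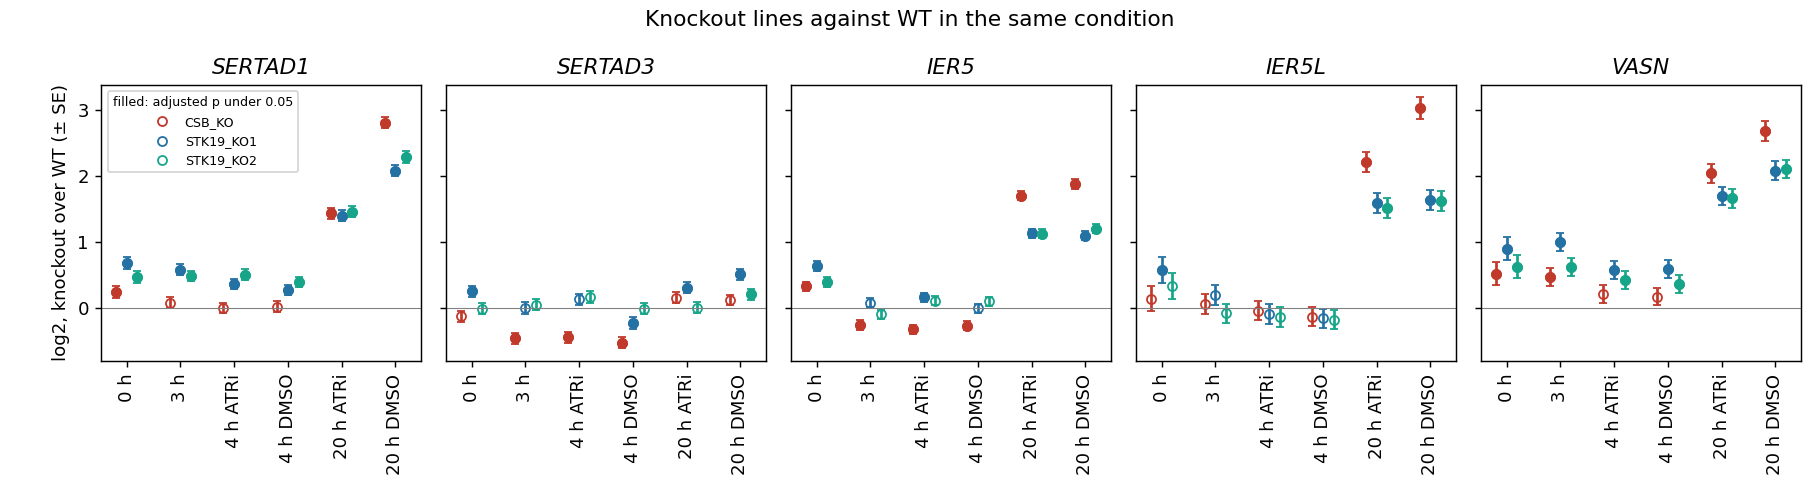
Fitted log2 fold change of each knockout over WT in the 6 conditions, by gene (points with SE, n = 3 per group); filled points passed an adjusted p of 0.05. For SERTAD1, IER5, IER5L and VASN the differences at 20 h stand above those at 0 h, 3 h and 4 h in each knockout.

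The pathways in which the members act moved unevenly, and the lists for them hold no member. Of 19 SERTAD partners (E2F, DP and CDK4 genes, RPA subunits and co-activators), 3 rose and 7 fell in ATRi at 20 h in CSB_KO, with a median log2 difference of -0.13, and 9 rose and 5 fell in WT, with a median of 0.07. In STK19_KO1 12 rose and 3 fell, with a median of 0.25, and in STK19_KO2 9 rose and 4 fell, with a median of 0.17. E2F1, a factor that SERTAD1 co-activates, differed by 0.17 in CSB_KO and 1.2999 in WT and was called in 3 lines. RPA1, a subunit of replication protein A, fell in all 4 lines, with a mean of -0.37. At 3 h against 0 h 10 of 19 rose and 9 fell in WT, where 62.4% of all genes were called, with log2 differences of -1.42 for E2F3 and 0.77 for E2F1. In CSB_KO, STK19_KO1 and STK19_KO2 8, 7 and 8 rose and 10, 8 and 10 fell. Of all genes 61.3%, 60.6% and 57.6% were called there.

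Of 20 genes of the IER family and the HSF1 pathway, 12 rose and 4 fell in WT at 3 h against 0 h. In CSB_KO, STK19_KO1 and STK19_KO2 12, 12 and 8 rose and 8, 6 and 6 fell. IER2 and IER3, immediate early genes named for the same kind of response, rose in all 4 lines at 3 h, by means of 1.87 and 1.299 on the log2 scale. HSPA1B, a heat shock chaperone whose counts are uncertain because of a near-identical copy, fell in all 4, with a mean of -1.05, and so did PPP2R2A, a regulatory subunit of PP2A, with a mean of -0.80. In ATRi at 20 h 1 of 20 rose and 12 fell in CSB_KO, and 5 rose and 11 fell in WT. STK19_KO1 and STK19_KO2 had 3 and 2 that rose and 13 and 12 that fell. HSPA8, a constitutive heat shock protein, fell in all 4 lines, with a mean of -1.25, while IER5 itself was called in none.

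Of 23 TGF-beta pathway genes, 14 fell and 4 rose in WT at 3 h against 0 h, with a median log2 difference of -0.48, against 0.06 over all genes. In CSB_KO, STK19_KO1 and STK19_KO2 15, 14 and 11 fell and 3, 3 and 6 rose. The receptor genes TGFBR3 and TGFBR2 fell in all 4 lines, with means of -2.48 and -1.95, and CCN2, a gene that TGF-beta induces, rose in all 4, with a mean of 2.47. In ATRi at 20 h 13 of 23 fell and 4 rose in WT, while VASN rose there. In CSB_KO, STK19_KO1 and STK19_KO2 8, 14 and 11 fell and 0, 4 and 2 rose. TGFB1, a ligand that vasorin binds, had a mean log2 difference of -0.87 over the 4 lines and was called in 3, and SMAD6, an inhibitory SMAD, fell in all 4, with a mean of -1.24. The pathway genes were listed with earlier results of these data known, and each count here is a description beside the shares given above.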

How the data were processed

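Polyadenylated RNA from 72 libraries of HEK293 Flp-In T-REx cells was measured, in 24 groups of 3 (4 lines and 6 conditions). RNeasy columns gave the RNA and an NEBNext Ultra II Directional kit the libraries, per the labels' protocols. The deposited table holds expected counts per gene, whole numbers for 19324 genes, 572 of them without a symbol; per the submitters' processing notes STAR, RSEM, deepTools 3.5.1 and GRCh38 were used, and no source used here says if the authors rounded the expected counts.

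From these counts, edgeR 4.0.16 (R 4.3.3) kept 15470 genes by filterByExpr (minimum count 10, minimum total 15), scaled libraries by TMM and fitted 1 coefficient per group over all 72 libraries. Quasi-likelihood tests of 40 contrasts were adjusted by Benjamini-Hochberg over all tested genes and called under 0.05; another 20 contrasts, which the choice of genes had used, are described without a test. The 40 contrasts gave 200 tests of the 5 genes. Correlations used log2 CPM with a prior count of 2, and for each member the 3 genes most like it were taken; 1 of them is not reported here. From each pathway list up to 2 genes that rose and 2 that fell were taken, called in at least 2 lines with 1 sign in all 4, by the largest mean change, and some of these are named. The fit was also run on simulated data for WT at 20 h, built with means and spread from the finished fit. It called 49 of 50 genes changed 1.5-fold, 50 of 50 at 2-fold, 49 of 50 at 4-fold and 50 of 50 at 0.5-fold. Of 15270 unchanged genes it called 4. Far fewer genes were changed there than the 63.9% called in the real comparison, so the simulation does not cover that setting. Promoters were read from RefSeq. Figures were drawn with matplotlib 3.10.9.

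The members and lists were chosen with earlier results of these data known. The labels do not say that replicates were separate cultures, so p-values measure the spread between these samples, which may be technical. Alternatives were RLE scaling, DESeq2 1.42.0, no filter, a fit of only the groups compared, a replicate block, leaving out each replicate and, chosen after the data were seen, leaving out 5 libraries that stood apart.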

Additional observations from a re-analysis of the deposited data

Results flagged for a closer look

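The log2 effect of ATRi over DMSO at 20 h differed between a knockout and WT, by a test of the difference itself, for SERTAD1, IER5L and VASN. For SERTAD1 the difference was -1.37 in CSB_KO, -0.68 in STK19_KO1 and -0.83 in STK19_KO2 (edgeR adjusted p = 2.66e-15, 2.55e-06 and 3.5e-08). In CSB_KO it was -0.82 for IER5L and -0.64 for VASN (edgeR adjusted p = 0.000934 and 0.0053).

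The ATRi effect also differed between 20 h and 4 h within a line. For SERTAD3 the effect at 20 h minus that at 4 h was -0.57 in CSB_KO, -1.09 in STK19_KO1, -0.90 in STK19_KO2 and -0.52 in WT (edgeR adjusted p at most 0.000524). SERTAD1 gave 0.78 in STK19_KO1, 0.61 in STK19_KO2 and 1.56 in WT, and IER5L gave 0.89, 0.86 and 1.00 in the same lines (edgeR adjusted p at most 0.000564). VASN gave 0.76 in WT (edgeR adjusted p = 0.000968), and IER5 gave -0.25 in STK19_KO1 (edgeR adjusted p = 0.0284). The causes of these differences were not tested.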

How the results depend on the processing

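Counts are of member tests called over all lines. With only the groups compared in the fit, the calls higher in ATRi at 4 h numbered 0 in place of 1, the knockout calls at 3 h 3 higher in place of 5 and 1 lower in place of 2, and the lower calls for the difference in ATRi effect at 20 h 8 in place of 5. Without the 5 libraries that stood apart, the lower calls were 2 in place of 0 in ATRi at 4 h, 5 in place of 2 for knockouts at 3 h, 6 in place of 3 at 4 h in DMSO and 8 in place of 5 for the difference in ATRi effect at 20 h. Calls also gained without them were IER5 in STK19_KO2 at 20 h against 4 h in ATRi (-0.10), VASN in CSB_KO (0.22) and IER5 in STK19_KO2 (0.11) against WT at 4 h in ATRi, SERTAD3 in CSB_KO against WT at 20 h in ATRi (0.16), and, for the ATRi effect at 20 h minus 4 h, SERTAD1 (0.21) and IER5 (-0.25) in CSB_KO, VASN in STK19_KO1 (0.27) and IER5 in STK19_KO2 (-0.21). When each replicate was left out in turn, the counts ranged from 0 to 1 higher and 0 to 1 lower in ATRi at 4 h, from 2 to 4 lower for knockouts at 3 h, from 2 to 4 higher and 1 to 6 lower at 4 h in DMSO, from 3 to 5 higher at 4 h in ATRi, and from 3 to 7 lower for the ATRi effect at 20 h minus 4 h. Among tests called in at least 1 fit, tests of ATRi against DMSO at 20 h and the described changes, a sign changed for IER5L in CSB_KO in ATRi at 20 h, main value 0.0021, with only the groups compared (-0.0011), with a replicate block (-0.0041) and over left-out replicates (-0.069 to 0.055). It also changed over left-out replicates for IER5 in WT in ATRi at 20 h (-0.068 to 0.095), SERTAD3 in STK19_KO1 against WT at 3 h (-0.11 to 0.12), IER5L in STK19_KO2 against WT at 3 h (-0.24 to 0.028) and IER5L in STK19_KO1 at 20 h against 4 h in DMSO (-0.0016 to 0.18). Counted as pairs of 1 such test and 1 alternative, 1082 kept call and direction, 72 gained and 46 lost a call and 6 changed sign. Of the 200 tests, 70 were called in no fit, and 34 of these 70 changed sign under an alternative. Over 30 tested contrasts replicate numbers did not pair the samples: same-numbered deviations correlated between -0.0651 and 0.1424. Changes over time within a line without inhibitor were outside these contrasts, so pairing there was not checked. In WT, replicate 1 was lowest for every member in untreated cells and in the early irradiated groups without inhibitor. The replicate block gave 10 higher calls in ATRi at 20 h in place of 8. For knockouts at 20 h in DMSO the block gave 14 higher calls, as without it. RLE scaling moved the median gene by -0.031 to 0.089. Of the 15 genes taken as most alike, 11 to 14 remained over RLE scaling and left-out replicates. Calls over all genes moved by over 1.5 times (lowest to highest over the alternatives) in these comparisons: CSB_KO, ATRi against DMSO at 4 h, 460 (77 to 1327), then CSB_KO, ATRi against DMSO at 20 h, 4876 (2663 to 6402), then STK19_KO1, ATRi against DMSO at 4 h, 140 (21 to 198), then STK19_KO2, ATRi against DMSO at 4 h, 34 (10 to 100), then WT, ATRi against DMSO at 4 h, 411 (7 to 2149), then CSB_KO against WT at 0 h, 5381 (3355 to 6211), then CSB_KO against WT at 3 h, 7698 (2615 to 7979), then STK19_KO1 against WT at 3 h, 9141 (3922 to 9380), then STK19_KO2 against WT at 3 h, 9313 (6147 to 9580), then CSB_KO minus WT, ATRi effect at 4 h, 495 (60 to 1162), then STK19_KO1 minus WT, ATRi effect at 4 h, 0 (0 to 12), then STK19_KO1 minus WT, ATRi effect at 20 h, 5541 (3514 to 7109), then STK19_KO2 minus WT, ATRi effect at 4 h, 1 (0 to 28), then STK19_KO2 minus WT, ATRi effect at 20 h, 5501 (3337 to 7032), then CSB_KO, ATRi effect, 20 h minus 4 h, 2424 (845 to 3826), then WT, 3 h against 0 h, 9653 (5850 to 9873). The causes were not tested.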
